A study of Mus musculus with 8 samples.

Results

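The Hox genes encode homeodomain transcription factors that specify position along the body axis and the limbs, and in mouse they lie in 4 clusters, HoxA on chromosome 6, HoxB on chromosome 11, HoxC on chromosome 15 and HoxD on chromosome 2. Binding sites of ASH2L, which KMT2 enzymes need in order to methylate histone H3 at lysine 4, were mapped along these clusters gene by gene. The 40 genes described here are 38 Hox genes and the neighbouring homeobox genes Evx1 (next to HoxA) and Evx2 (next to HoxD), out of 21938 protein-coding genes on the assembled chromosomes. They were chosen by gene symbol, with earlier results of the same site list known, among them that its widest site lies at HoxD. The sites counted were those overlapping a window from 5 kb outside the outermost listed gene on one side of a cluster to 5 kb outside the outermost on the other. In total 75 of the 6444 listed sites met this rule, 45 in HoxA, 30 in HoxD and 0 in HoxB and HoxC.

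The list came from ChIP-seq of iMEF cells, immortalised mouse embryo fibroblasts whose floxed Ash2l alleles carry a deletion of exon 4, induced through a Cre-ER fusion with 4-hydroxytamoxifen, and which live on human ASH2L fused to an FKBP degradation tag and an HA epitope, delivered by lentivirus. Every library came from such cells, so no group had the endogenous, untagged protein, and the cells were grown out as clones by limiting dilution, the study working mainly with 1 of them. The 8 libraries formed 4 groups with 2 replicates each, namely HA precipitates of untreated cells, HA precipitates after 1 h of dTAG (a degrader that marks the FKBP fusion for destruction), and the input DNA of each condition. The authors united the sites of all samples into 1 list of positions, with no signal per library, so it does not show the depth, no replicate error can be given, and a change after dTAG was not analysed here. A site states that the authors' peak caller passed a region in at least part of the data. Its absence states that no peak was listed there, which is not a measurement of no ASH2L. The libraries are labelled as fibroblasts, and 5 of 11 fibroblast marker genes (Col1a1, Col1a2, Vim, Prrx1 and Twist1) had a site centred within 1 kb of a transcription start site (TSS), while Col3a1, Thy1, Pdgfra, Pdgfrb, Fn1 and S100a4 had none there. Of 11 markers of epithelial, blood, endothelial, pluripotent, muscle and liver cells 0 had such a site, and the share among all protein-coding genes was 14.0%. A site is not a measure of expression, so the cell type was not checked beyond these counts.

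By convention the genes of a cluster are numbered into paralogue groups from 1 to 13. Low numbers lie at the 3′ end of a cluster and are used towards the head, whereas high numbers lie at the 5′ end and are used in the trunk, the limbs and the genital region. Fibroblasts in culture are known to keep a Hox pattern that reflects where in the body they came from. Of the KMT2 enzymes that work with ASH2L, KMT2A (MLL1) is a mammalian relative of Drosophila Trithorax. Trithorax was discovered as a keeper of Hox gene activity and opposes the Polycomb group.

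The 4 promoters below are examples of the mapped DNA. Each is shown as the 250 bases before the RefSeq TSS (GRCm38.p6, read 5′ to 3′ on the gene's strand) with CpG dinucleotides in capitals. The first pair lies wholly inside the widest site of its cluster. Hoxa10 is at chr6:52234940-52235189 on the minus strand and Hoxd10 at chr2:74691641-74691890 on the plus strand.
Hoxa10: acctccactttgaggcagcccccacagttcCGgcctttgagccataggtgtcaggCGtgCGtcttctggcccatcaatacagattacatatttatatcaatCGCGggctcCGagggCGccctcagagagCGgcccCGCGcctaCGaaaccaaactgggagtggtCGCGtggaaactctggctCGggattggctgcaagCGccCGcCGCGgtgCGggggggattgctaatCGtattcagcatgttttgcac
Hoxd10: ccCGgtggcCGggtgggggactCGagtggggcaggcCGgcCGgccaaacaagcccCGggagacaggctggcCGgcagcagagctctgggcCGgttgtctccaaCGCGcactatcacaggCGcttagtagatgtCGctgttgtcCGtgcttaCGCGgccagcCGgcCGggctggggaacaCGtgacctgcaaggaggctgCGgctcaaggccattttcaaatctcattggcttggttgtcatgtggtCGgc
The second pair lies under no site and is shown for contrast, as the promoters with the most CpG among those of HoxB and HoxD for which the table holds a sequence and no site was listed. Hoxb4 is at chr11:96318017-96318266 and Hoxd1 at chr2:74762730-74762979, both on the plus strand.
Hoxb4: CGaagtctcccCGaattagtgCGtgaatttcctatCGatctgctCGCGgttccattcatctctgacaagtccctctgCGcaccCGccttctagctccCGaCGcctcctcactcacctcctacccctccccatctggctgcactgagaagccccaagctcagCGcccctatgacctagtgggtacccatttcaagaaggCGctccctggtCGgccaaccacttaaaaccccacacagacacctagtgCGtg
Hoxd1: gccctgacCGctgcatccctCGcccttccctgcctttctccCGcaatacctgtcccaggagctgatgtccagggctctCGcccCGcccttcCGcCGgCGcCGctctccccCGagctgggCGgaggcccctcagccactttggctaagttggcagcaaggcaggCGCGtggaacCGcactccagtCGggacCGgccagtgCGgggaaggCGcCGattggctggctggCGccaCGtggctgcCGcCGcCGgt
The bound Hoxa10 and Hoxd10 stretches hold 20 CpG each. The stretches without a site hold 14 CpG at Hoxb4 and 24 at Hoxd1. The second pair was picked for its many CpG, so these 4 counts do not compare promoters with and without a site, which is done for all promoters of the table further on. None of the 4 stretches overlaps an annotated UTR.

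ASH2L sites were found in HoxA and HoxD and in neither of the other clusters. The HoxA window (chr6:52157417-52323378, 166 kb) had 41.2 kb under sites, or 24.8% of its length. The HoxD window (chr2:74647991-74770142, 122 kb) had 31.2 kb, or 25.6%. The HoxB window (chr11:96189316-96373256, 184 kb) and the HoxC window (chr15:102916103-103041852, 126 kb) had no base under a site. Across the assembled chromosomes 0.0826% of bases lay under sites. The 4 windows made up 0.0219% of the genome and held 1.17% of its sites and 3.22% of the bases under sites.

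**Figure D1:**
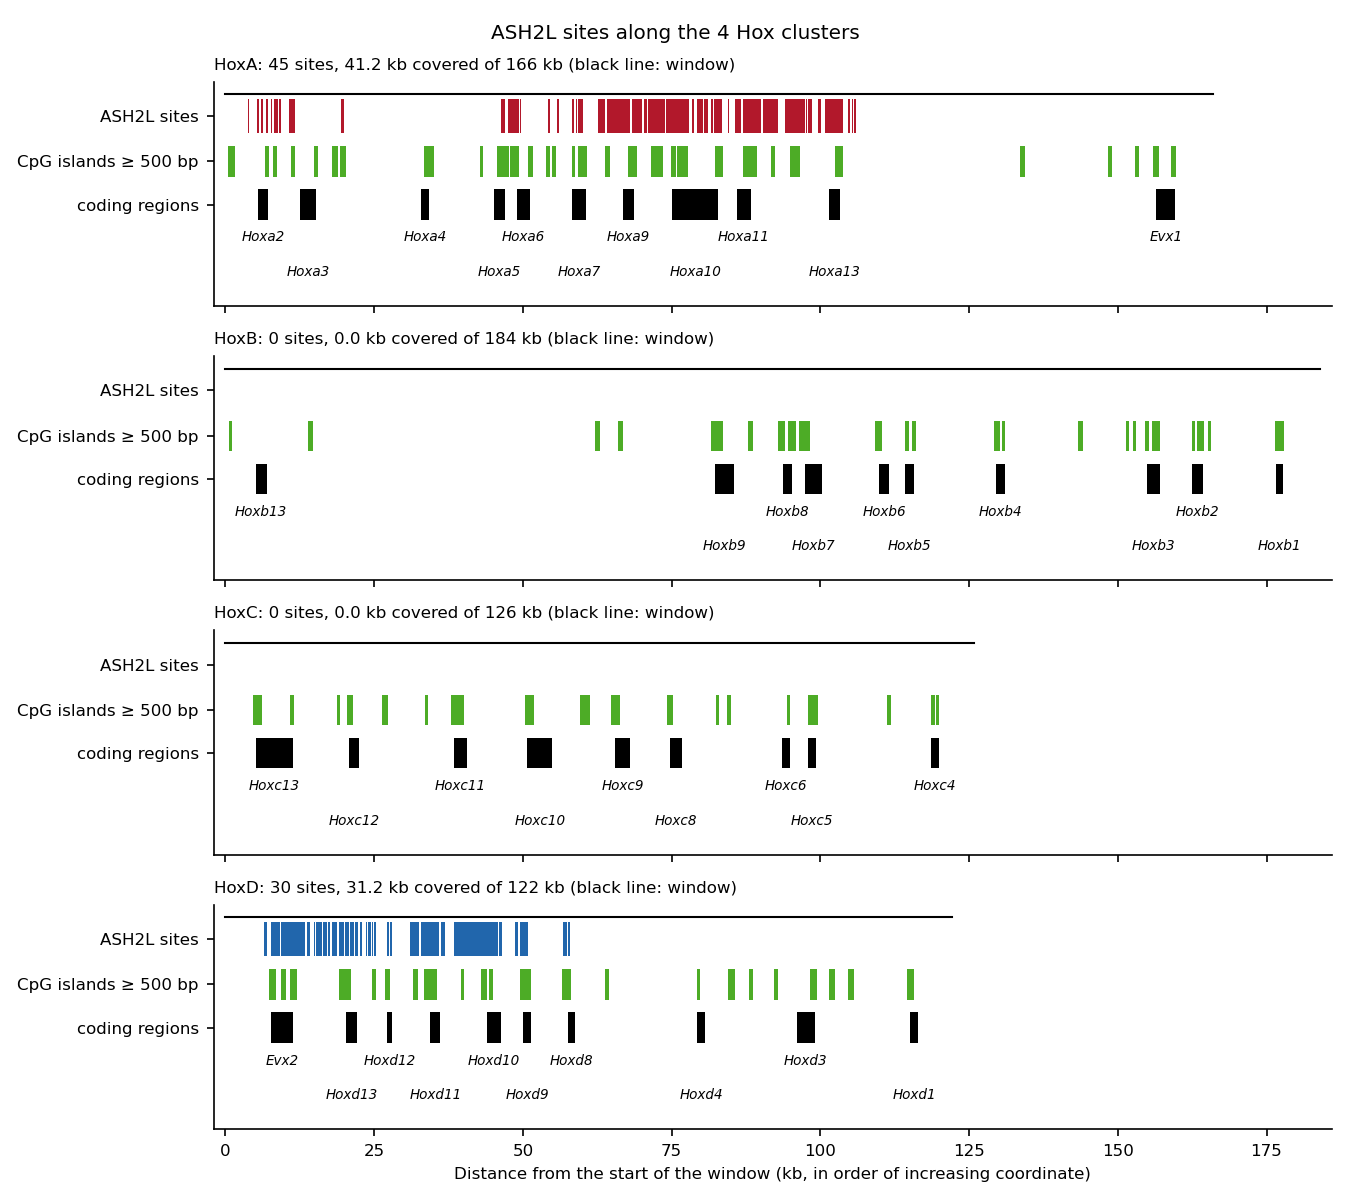
Map of the 4 windows, with ASH2L sites (top row of each panel), CpG islands of 500 bp or more (middle row) and the coding regions of the listed genes (bottom row) against the distance from the start of the window in kb. Sites fill the stretch from Hoxa5 to Hoxa13 and from Evx2 to Hoxd9, a smaller group lies round Hoxa2 and Hoxa3, and the panels of HoxB and HoxC hold islands but 0 sites.

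When the assembled chromosomes were divided into 27268 tiles of 100 kb, the tile with the most bases under sites was that of the 5′ part of HoxA (37.2 kb in 36 sites). The second was that of Evx2 and the 5′ part of HoxD (30.4 kb in 28 sites). The third, which holds Tbx15, had 15.5 kb, and 83.2% of tiles had no site. The 3′ part of HoxA fell in the tile ranked 36 and the 3′ part of HoxD in the tile ranked 408. The 5 tiles that cover HoxB and HoxC were among those without a site.

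Of the 40 genes, 14 had a promoter site, meaning a site centred within 1 kb of an annotated TSS. Among all protein-coding genes the share was 14.0%, and among those with a CpG island near a TSS (within 1 kb), which each of the 40 genes has, it was 19.0%. The 14 genes were Hoxa2, Hoxa3, Hoxa5, Hoxa7, Hoxa9, Hoxa10, Hoxa11, Hoxa13, Hoxd8, Hoxd9, Hoxd11, Hoxd12, Hoxd13 and Evx2. They make up 14 of the 21 genes of the HoxA and HoxD windows and 0 of the 19 genes of the HoxB and HoxC windows. A site overlapped the annotated span of 16 of the 40 genes, the 14 above with Hoxa6 and Hoxd10, compared with 16.9% of all protein-coding genes. Since the genes were chosen with these sites known, the counts are given as a description and no test was made.

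The 24 genes with no site in their span fall into 2 kinds. Hoxa4, Evx1, Hoxd4, Hoxd3 and Hoxd1 lie in a cluster that has sites but had none on their own bases. The other 19 are Hoxb1 to Hoxb9, Hoxb13, Hoxc4, Hoxc5, Hoxc6 and Hoxc8 to Hoxc13. The nearest site to a TSS of a HoxB gene was 128840 bp away, from Hoxb13, and the nearest to one of a HoxC gene was 179869 bp away, from Hoxc4. Outside the HoxB window the next sites lay 124 kb away in intergenic DNA on one side and 230 kb away in an intron of Skap1 on the other. Outside the HoxC window they lay 245 kb away in an intron of Atp5g2 and 172 kb away in an intron of Cbx5.

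The paralogue groups show how unlike the 4 copies were. Each gene was assigned the stretch of its window from halfway to the coding region of one neighbour to halfway to that of the other, so that no base was counted for 2 genes. In HoxA and HoxD, the stretches of the 9 genes of groups 9 to 13 had 51.5% of their bases under sites (54.0 of 105 kb), those of the 4 genes of groups 5 to 8 had 17.4% (6.70 of 38.6 kb), and those of the 6 genes of groups 1 to 4 had 4.27% (3.97 of 92.8 kb). In HoxB and HoxC the same 3 ranges hold 7, 7 and 5 genes, all with 0 bases. A promoter site was found at 8 of the 9 genes of groups 9 to 13 in HoxA and HoxD, at 3 of 4 of groups 5 to 8 and at 2 of 6 of groups 1 to 4. The last count includes Hoxa3, whose promoter site belongs to a distant TSS and lies in the stretch assigned to Hoxa7. Groups 9, 11 and 13 had a promoter site at the copies of both HoxA and HoxD. In group 4, which has a copy in every cluster, none of the 4 copies had a site.

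**Figure D2:**
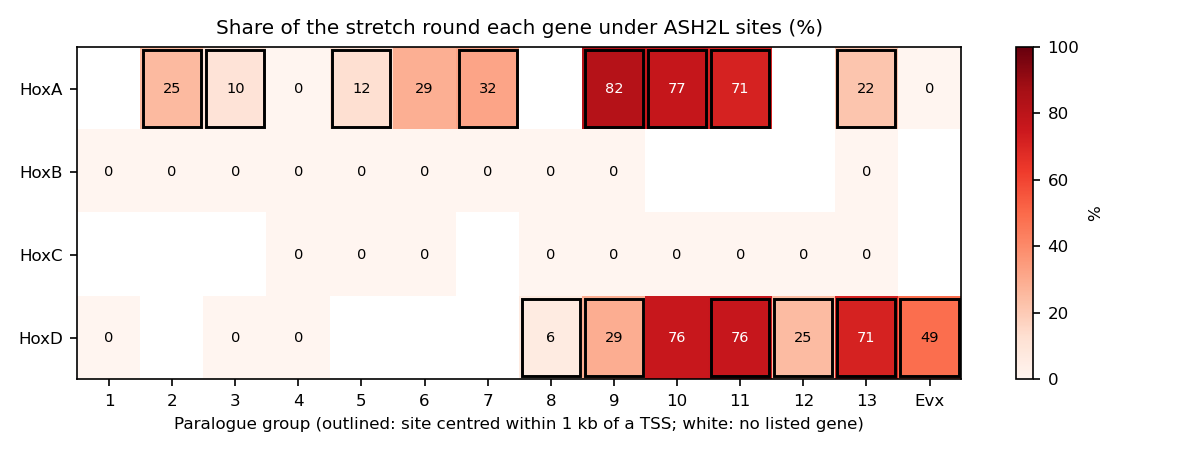
Share of the stretch round each gene that lay under ASH2L sites, in percent, with clusters as rows and paralogue groups (and Evx) as columns. Outlined cells have a promoter site, and the darkest cells are Hoxa9 (81.9%), Hoxa10 (76.9%), Hoxd11 (76.3%) and Hoxd10 (75.9%), while the rows of HoxB and HoxC are at 0.

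At the 3′ end of HoxA, Hoxa2, which patterns the hindbrain and the second pharyngeal arch, had 3 sites in its span of 2415 bp (37.2% covered). The site nearest to its TSS was 295 bp wide and centred 316 bp upstream. Hoxa3, which is needed for the thymus and the parathyroid glands, has an annotated span of 44275 bp that runs across its neighbours, and 8 sites fell in it (8.58% covered). Its coding region of 2710 bp had none. Its promoter site (394 bp, centred 56 bp downstream) belongs to a TSS that lies beyond Hoxa6, near Hoxa7. A site of 1026 bp (chr6:52168154-52169179) lay in an exon of the noncoding gene Hoxaas2, between the coding regions of Hoxa2 and Hoxa3. The outermost site on this side was 257 bp wide (chr6:52161147-52161403), in an exon of the noncoding gene Hotairm1, and the next site beyond it, outside the window, was 93.6 kb away. The 9 sites from there to the Hoxa3 intron formed a bound stretch, here a run of sites with gaps of up to 10 kb, of 16.2 kb that was 24.5% covered.

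A gap of 26.4 kb (chr6:52177336-52203730), the longest between neighbouring sites in any window, followed. Hoxa4 lies wholly inside it, and the centre of the nearest site was 12322 bp upstream of its TSS. The gap was not free of CpG islands. Those centred in it, 9 in all, had a combined width equal to 20.8% of its length, the longest being 1672 bp. Of the 9, 1 was touched by a site and so reached beyond the gap. The values do not show whether that island was the longest.

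From Hoxa5 onward the sites formed a second bound stretch, of 59.7 kb (chr6:52203731-52263418) with 36 sites and 62.3% of its bases covered. Hoxa5, which is needed for lung development, had 1 site in its span of 2834 bp (689 bp, 24.3% covered). Hoxa6 had parts of 2 sites (29.8% covered), 1 of them 1406 bp wide (chr6:52205288-52206693). Neither was centred within 1 kb of its TSS, the nearest being 1701 bp downstream. Hoxa7 had 6 sites (37.4% covered), and the nearest to a TSS was 297 bp wide, 52 bp downstream. A site of 1177 bp (chr6:52219986-52221162) was centred in an intron of its longer transcripts.

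Coverage was higher at Hoxa9, a gene best known from leukaemias driven by KMT2A fusions, whose span of 7990 bp was 87.0% covered by 5 sites. It ranked 5th of 21938 protein-coding genes by the share of the span covered. The sites of 1 kb or more on it were 3809 bp (chr6:52221603-52225411), 1377 bp (chr6:52226002-52227378) and 2728 bp wide (chr6:52228528-52231255). Hoxa10, which acts in the uterus and in the limb, had 7 sites and 80.1% of its 9658 bp covered. By covered bases (7736 bp) it ranked 5th of all protein-coding genes, and Hoxa9 (6949 bp) ranked 8th. The widest site of the cluster, 3845 bp (chr6:52231438-52235282), was centred 36 bp upstream of a TSS of Hoxa10 in an intron of its longer transcript, and it holds the promoter printed above. Sites of 1082 bp (chr6:52236600-52237681) and 1323 bp (chr6:52239511-52240833) followed, the second reaching into the promoter of the upstream TSS.

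At Hoxa11, which is needed for the forearm and the kidney, a site of 3087 bp (chr6:52244379-52247465) was centred 112 bp upstream of the TSS, and 59.5% of the 3705-bp span was covered. A site of 2560 bp (chr6:52247708-52250267) lay next to it in an intron of the antisense transcript Hoxa11os, which was itself 95.5% covered. Between Hoxa11 and Hoxa13 a site of 3356 bp (chr6:52251439-52254794) was centred in intergenic DNA, 7306 bp upstream of the Hoxa11 TSS. Hoxa13, which shapes the digits and the urogenital tract, had its coding region of 1871 bp wholly under a site of 2670 bp (chr6:52258203-52260872), and a further site of 286 bp was centred 199 bp upstream of a TSS. The outermost site on this side was 274 bp wide (chr6:52263145-52263418), in an exon of the noncoding gene Hottip. No site followed over the remaining 59.96 kb of the window up to and beyond Evx1, whose nearest site was 50217 bp upstream of its TSS. Counted from the outermost site, the next site of the list lay 1121 kb away, in an intron of Creb5.

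In HoxD the sites lay at the 5′ end, where they took in Evx2. The bound stretch ran from Evx2 to Hoxd8 (chr2:74654478-74705850, 51.4 kb) with 30 sites and 60.8% of its bases covered. Its largest gap was 5.96 kb, between Hoxd9 and Hoxd8. The outermost site on the Evx2 side was 549 bp wide (chr2:74654478-74655026) and lay in a UTR of Evx2. The next site beyond it was 75.5 kb away, in a UTR of Lnpk. The outermost site on the Hoxd8 side was 200 bp wide (chr2:74705651-74705850), the smallest width in the list, and the next site beyond it lay 937 kb away.

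Evx2, a homeobox gene active in limb and spinal cord, had 66.2% of its 6567 bp covered. The coding region, at 96.2%, lay almost wholly under sites of 1524 bp (chr2:74655673-74657196) and 4095 bp (chr2:74657284-74661378). A site of 1071 bp (chr2:74663225-74664295) was centred in intergenic DNA 4203 bp upstream of its TSS. Between Evx2 and Hoxd13 the sites were close together, so that the stretch assigned to Hoxd13 held parts of 12 sites and was 71.3% covered, although the widest site in the span of Hoxd13 was 722 bp and the widest within 1 kb of its TSS was 899 bp (chr2:74667016-74667914). Hoxd13, mutated in human synpolydactyly, had 63.3% of its span covered, and its TSS had a site of 722 bp centred 107 bp downstream.

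Hoxd12 had 2 sites (27.9% of 2693 bp covered), both in coding sequence. Hoxd11, which acts with Hoxa11 in the forearm, had 5 sites and 72.0% of 7460 bp covered, among them a site of 1483 bp (chr2:74678982-74680464) and 1 of 2847 bp (chr2:74681102-74683948). The widest site of the whole list, 7465 bp (chr2:74686338-74693802), began in the span of Hoxd11 and covered most of Hoxd10. Hoxd10, a gene of the hind limb and the lumbar spinal cord, had 73.2% of its span and 92.7% of its coding region covered. It has no promoter site by the rule, because the centre of the widest site is 1854 bp upstream of its TSS, although the site holds the 300 bases of its RefSeq promoter. Hoxd9 had a site of 1280 bp (chr2:74697500-74698779) centred 412 bp downstream of its TSS and 42.4% of its span covered. Hoxd8 had 2 sites, 665 and 200 bp wide, and 26.1% of its span covered.

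Hoxd4, Hoxd3 and Hoxd1 had no site. The nearest was centred 6179 bp upstream of a TSS of Hoxd4, 6177 bp upstream of a TSS of Hoxd3 and 57230 bp upstream of the TSS of Hoxd1. The part of the HoxD window without a site, from Hoxd8 to its end, was 64.3 kb long.

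**Figure D3:**
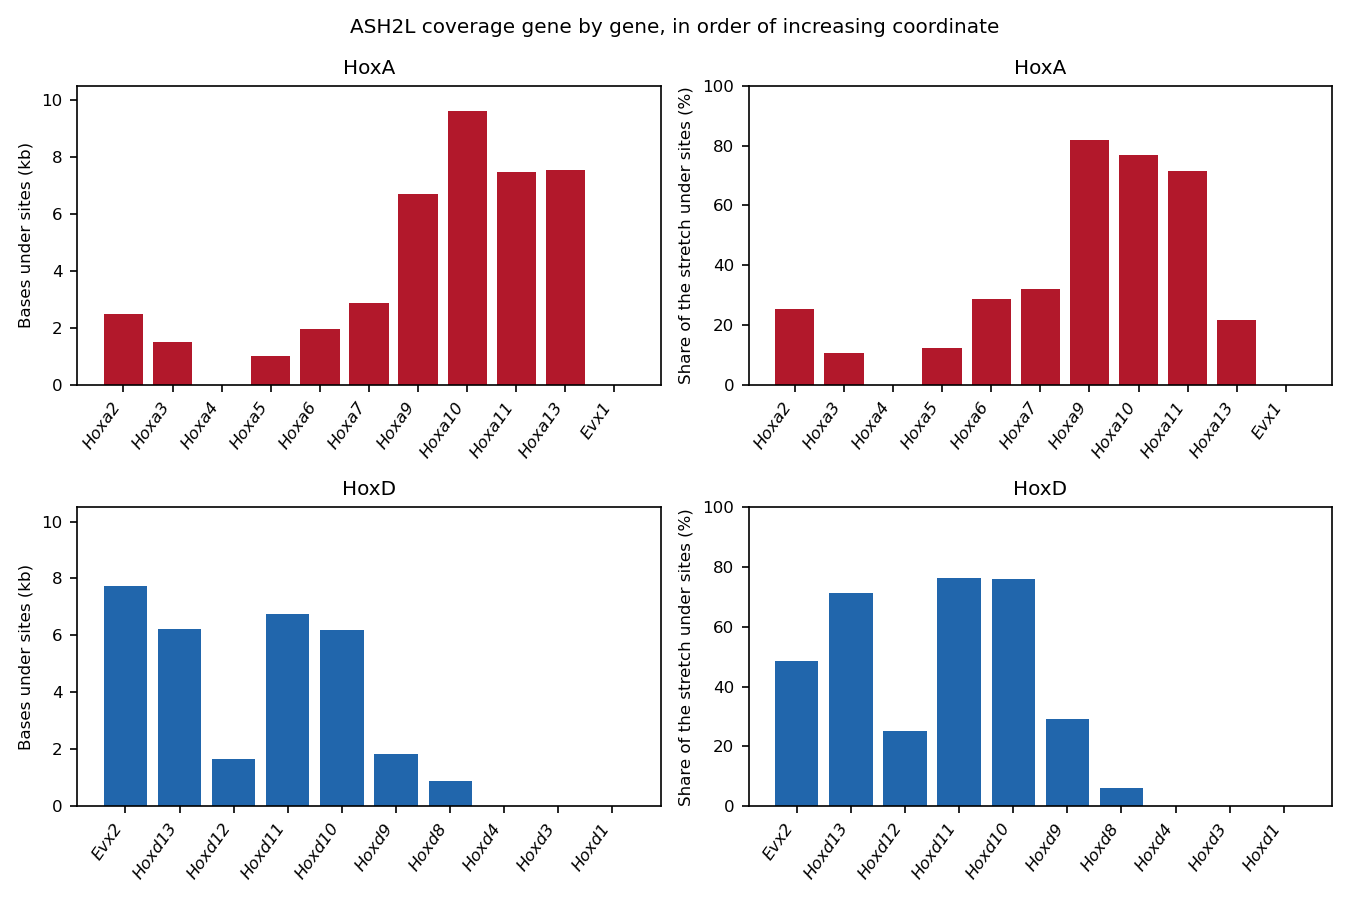
Bases under ASH2L sites (left, kb) and the share of the stretch covered (right, %) for the stretch round each gene of HoxA (top) and HoxD (bottom), in order of increasing coordinate. By share the bars are highest from Hoxa9 to Hoxa11 (71.4 to 81.9%) and at Hoxd13, Hoxd11 and Hoxd10 (71.3 to 76.3%), and by bases at Hoxa10 (9.63 kb) and Evx2 (7.73 kb), with a lower share at Hoxd12 (24.9%) and no bar at Hoxa4, Evx1, Hoxd4, Hoxd3 and Hoxd1.

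Measured against all genes, the spans of the HoxA and HoxD genes were densely covered. Their median covered share was 37.2% over 21 genes, whereas it was 0% over all 40 genes and over all protein-coding genes. Among genes with at least 1 base covered, the median was 50.9% for the 16 listed genes and 0.808% for all 3718. More than 50% of the span was covered at 8 of the 40 genes and at 19 of the 21898 other protein-coding genes. More than 20% was covered at 15 of the 40 and at 88 of the others. The 8 genes were Hoxa9, Hoxa13, Hoxa10, Hoxd10, Hoxd11, Evx2, Hoxd13 and Hoxa11. Hox genes are short, and a given site covers a larger share of a short gene.

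The sites in the windows were wide. Their median width was 473 bp (quartiles 302 and 1049 bp), compared with 268 bp (208 and 368 bp) for all 6428 sites on the assembled chromosomes. By cluster the median was 407 bp in HoxA and 590.5 bp in HoxD. Sites of 1 kb or more made up 20 of the 75, or 26.7%, whereas the share in the list was 2.47%. The 20 sites came to 12.6% of all sites of that width. Of the 10 widest sites of the list 4 were in the windows, at Hoxd10, Evx2, Hoxa10 and Hoxa9, and of the 50 widest 10 were. Neighbouring sites were also close, with a median gap of 357.5 bp in HoxA and 251 bp in HoxD, and 56 of the 73 gaps were under 1 kb.

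**Figure D4:**
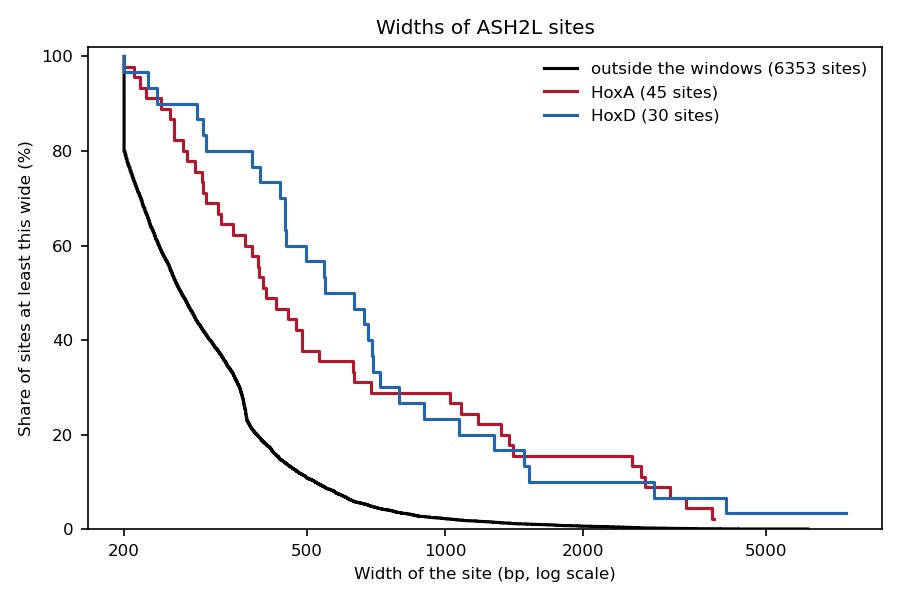
Share of sites that are at least as wide as the value on the horizontal axis (bp, log scale), for 45 sites in HoxA, 30 in HoxD and 6353 outside the windows. The curves of both clusters lie to the right of that of the other sites, which had a median of 266 bp, and HoxD reaches 7465 bp.

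In the windows, 40 of the 75 sites (53.3%) had their centre no more than 1 kb from a TSS of any annotated gene, noncoding ones included, compared with 52.5% of all 6428 sites. Counting TSSs of the listed genes alone, 28 (37.3%) were centred within 1 kb, 34 between 1 and 3 kb and 13 farther away. Of the 28, 17 were centred downstream and 11 upstream of the TSS. By annotation, 25 site centres lay in introns, 17 in intergenic DNA, 15 in coding sequence, 10 in noncoding exons and 8 in UTRs. Introns held 20 of 45 centres in HoxA and 5 of 30 in HoxD, and intergenic DNA held 6 and 11, a difference that was not tested.

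CpG islands, short regions rich in CpG that mark most vertebrate promoters, were compared next, because KMT2 complexes are known to be recruited in part through CXXC domains that bind unmethylated CpG. An island was here any union of 200-bp windows whose GC content exceeded 50% and whose CpG count exceeded 0.6 times that expected from base composition. Of the 75 sites 50 (66.7%) overlapped an island, compared with 51.9% of all sites. Of the bases under the 75 sites 55.5% lay in islands, and of the bases under all sites 54.7%. Among sites of 1 kb or more, 19 of 20 in the windows and 131 of 139 outside overlapped an island, while the median CpG density was 4.56 per 100 bp in the windows and 7.75 outside.

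The clusters without a site had islands too. Islands made up 28.9% of the HoxA window, 28.5% of HoxD, 25.3% of HoxC and 21.7% of HoxB, and the GC content of the windows ranged from 48.6 to 49.1%. Of islands of 500 bp or more, a site touched 23 of 35 in the HoxA window, 14 of 23 in HoxD, 0 of 26 in HoxB and 0 of 20 in HoxC. Over the genome, 8.88% of islands of this length were touched. The stretches of groups 9 to 13 were 34.1% island in HoxA and HoxD and 20.7% in HoxB and HoxC, those of groups 5 to 8 were 36.0 and 30.0%, and those of groups 1 to 4 were 23.72 and 22.01%. The stretches over 70% covered were those of Hoxd11 (55.9% island), Hoxa9 (51.8%), Hoxa10 (46.6%), Hoxa11 (34.8%), Hoxd10 (31.1%) and Hoxd13 (25.3%). In HoxB and HoxC, where no base was covered, the highest island shares were those of Hoxb8 (51.0%), Hoxb6 (41.9%) and Hoxb7 (37.7%). The part of island content in the coverage was not tested.

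**Figure D5:**
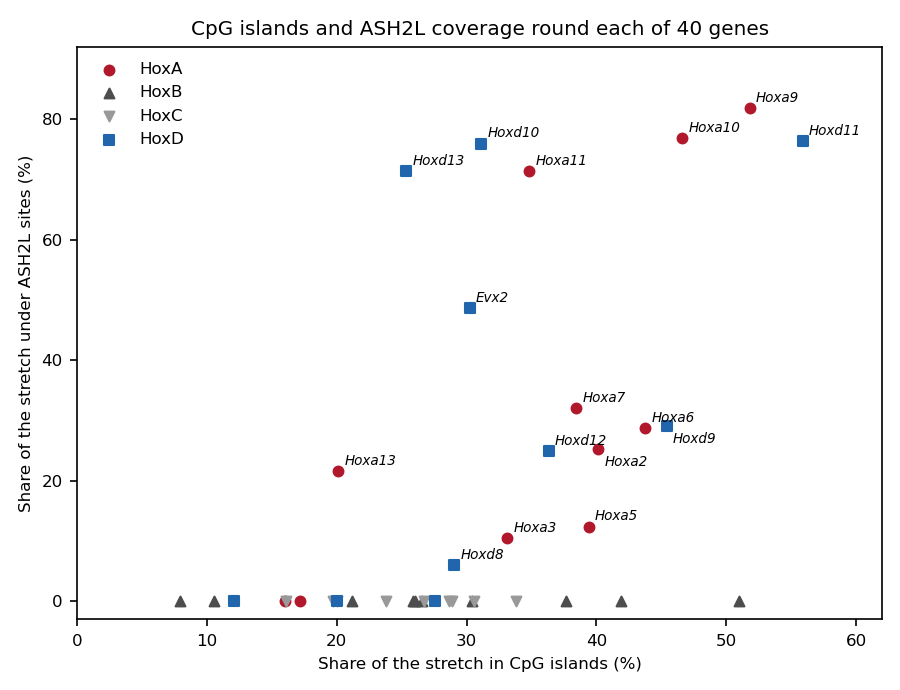
Share of the stretch round each of the 40 genes that lies in CpG islands (horizontal axis, %) against the share under ASH2L sites (vertical axis, %), with named points for the genes whose stretch has a site. Genes of HoxB and HoxC lie on the zero line from 7.91 to 51.0% island, and the stretches of HoxA and HoxD genes without a site range from 12.1 to 27.6% island.

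In the RefSeq promoter table (250 bases before to 50 after the TSS), 26 promoters of 24 listed genes were found, and 4 of the 26 belong to HoxB or HoxC, so most genes of the clusters without a site are missing from these counts. A site touched 13 of them, of 11 genes, and the share among all 32851 promoters of the table was 5.77%. The 13 touched promoters held a median of 20 CpG (range 4 to 45) and the 13 untouched ones 13 (range 4 to 29), so the ranges overlapped. Over the whole table the medians were 26 for touched and 6 for untouched promoters. The highest counts were at Hoxa13 (45) and Hoxd13 (37), and the lowest among touched promoters were at Hoxa9 and the upstream TSS of Hoxd11 (4 each).

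Motif letters were sought on both strands of each site. TGATTNAT, a pattern bound by HOX proteins together with PBX, occurred at 10 of the 75 sites (13.3%) and at 3.53% of all sites. The sites of the windows are wider than most, and per 10 kb of site the pattern occurred 1.38 times, compared with 1.11 over all sites. By cluster it occurred 1.70 times per 10 kb of site in HoxA and 0.960 times in HoxD, beside 1.51 and 2.05 over the whole windows. TGANTCA, which includes the AP-1 pattern, occurred at 12 of the 75 sites (16.0%) and at 11.4% of all sites, but per 10 kb 1.93 times, compared with 3.82 over all sites. By cluster it occurred 1.21 times in HoxA and 2.88 times in HoxD, beside 2.29 and 1.96 over the whole windows. The CTCF consensus, sought as a fixed pattern without mismatches, was found at 0 of the 75 sites and at 30 of the 6428. The whole windows held it 1 time, in HoxB. Sequences that differ from this pattern were not counted, so the low counts do not show that the windows lack CTCF binding sequences. The motif counts are matches of letters, not bound factors.

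The clusters also hold noncoding and microRNA genes. In the HoxA window 17 of 25 annotated genes that are not protein-coding had a base under a site, in HoxD 4 of 9, and in HoxB and HoxC 0 of 9 and 0 of 7, compared with 2.16% of all such genes on the assembled chromosomes. Many of them overlap each other or a Hox gene, so that 1 site is counted for several. Hottip, a transcript of the 5′ end of HoxA known for binding WDR5, a partner of ASH2L, had 9.51% of its span covered, at its start. Hotairm1 at the other end had 4.93%. Gm28309, which runs through Hoxd10 and Hoxd11, had 82.6%. Hotair, in HoxC, had no site.

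Of the microRNAs, Mir196b, inside the annotated span of Hoxa9 towards Hoxa10, lay wholly under the site of 2728 bp. Its relatives Mir196a-1 (HoxB) and Mir196a-2 (HoxC), both of which give rise to miR-196a-5p, had the nearest site 199591 and 240720 bp away. The mature sequences are shown (RefSeq, GRCm38.p6) because the same seed, bases 2 to 8 in capitals, is thus encoded at a place with a listed site and at 2 places without.
miR-196b-5p: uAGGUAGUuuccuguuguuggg (chr6:52230129-52230150, minus strand)
miR-196a-5p: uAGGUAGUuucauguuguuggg (chr11:96265187-96265208 and chr15:102973365-102973386, plus strand)
Counted from the 5′ end, with miR-196a-5p given first, the difference is A12C, outside the seed. Mir10b in HoxD and Mir10a in HoxB, which share another seed, were both without a site, the nearest lying 20223 and 251590 bp away. Mir615 in HoxC had none either.

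Proteins that act with HOX factors, or belong to the same class, were counted from fixed lists. Of 8 genes of TALE cofactors, which bind DNA together with HOX proteins, Meis2, Pbx3 and Pknox1 had a promoter site. Pbx3 had 2 sites (0.208% of the span) while Pknox1 (0.819%), Meis2 (0.156%) and Pknox2 (0.0835%, not at a promoter) had 1 each, beside the median of 0.808% over all protein-coding genes with a covered base. Of the 6 ParaHox and caudal genes (Cdx1, Cdx2, Cdx4, Gsx1, Gsx2 and Pdx1), which are close relatives of the Hox genes, none had a site. Of 16 other genes of the ANTP class, Dlx2 had a promoter site, with 2 sites and 27.7% of its span covered. The other 15, among them En1, En2, Gbx2, Meox1, Msx1 and Msx2, had none. All 30 of these genes have a CpG island near a TSS. In all 4 of the 30 had a promoter site. This is close to the 14.0% of all protein-coding genes and below the 19.0% of those with an island. The pooled count says nothing particular about these genes. By list the share was 37.5% for the TALE cofactors, 0% for the ParaHox and caudal genes and 6.25% for the other ANTP-class genes. The lists are small, and the difference between them was not tested.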

How the data were processed

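ChIP-seq libraries were made by the authors from iMEF cells, with 2 replicates each of HA precipitates and inputs, untreated and after 1 h of dTAG. After trimming (Trim Galore), the authors aligned reads to mm10 by BWA, filtered by SAMtools, pooled the replicates using Picard, and identified narrow peaks by MACS (MACS2 in the submitters' processing notes, which also name deepTools and DESeq2; versions are not given in the sources used here). How peaks of different samples were united is likewise not given.

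The deposited table used here, the union of ASH2L sites, lists positions only (chromosome, start, end), with no count, score or p-value, so depth, replicate error and treatment effects were not analysed and no significance test was run. A list of changed sites that the study names was not used here. The smallest end minus start was 200, so starts were taken as 0-based, and they are printed 1-based. TSSs, spans and coding regions came from GENCODE mouse release 21 on the same build, an earlier release than the authors'. Promoter and microRNA sequences came from RefSeq (GRCm38.p6). Islands are the union of all 200-bp windows that met the stated criteria. Sites outside the assembled chromosomes were left out, and 1 further gene of the clusters and 1 of the cofactor list are not reported here.

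The genes, gene lists and rules were chosen with earlier results of these data known. Every listed gene is accounted for. Sites are named if they are the widest of a cluster, lie at an edge or are 1 kb or wider. Which sequences are printed was decided with the sites known. Alternatives changed the promoter window, the TSS set, the flank, the joining of sites, the island rule, the gap and the use of 200-bp sites. Calculations used Python 3.11.15 with NumPy 2.4.6, pandas 2.3.3 and matplotlib 3.10.9, and the functions were tested on simulated data.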

Additional observations from a re-analysis of the deposited data

How the results depend on the processing

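Of 30 alternatives to 9 results, 26 stayed within 1.5 times the value given (for counts, medians, shares and lengths) or within its Wilson 95% binomial interval (for the count of sites at islands), and 4 did not. The median covered share of the 40 spans, which has 3 of the 26, was 0 under each of them because 24 spans have no site, so it could not move, and 23 of the other 27 alternatives stayed within these limits. When sites closer than 1 kb were joined, the 75 sites of the windows became 19, with a median width of 2083 bp in place of 473 bp, which follows from the joining itself. Sites overlapping a CpG island numbered 36 of 75 when islands had to be 500 bp or longer and 38 of 75 when at least 50% of the site had to lie in islands, compared with 50 of 75. The number of listed genes with a promoter site ranged from 12 (start of the gene span only) to 16 (window of 3 kb), and HoxB and HoxC had 0 sites with each of the 3 flanks tried. The bound stretch of HoxD was 44.3 kb with gaps of up to 5 kb, which leaves out Hoxd8, and the 16.2-kb stretch of HoxA at Hoxa2 and Hoxa3 then fell into 8.03 and 0.456 kb. No paired analysis was possible because the list carries no values per library, and for the same reason the planned test of ASH2L signal after dTAG, its replicate block and its runs with a replicate left out were not made. The list cannot show how strong a site is or in which libraries it was found.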
